A study of Mus musculus with 3 samples.

Results

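Insulin and insulin-like growth factor (IGF) signalling genes were described in the adult mouse dentate gyrus, the hippocampal subfield built around the granule cell layer. The 10 genes were taken by name: the ligand Igf1, the receptors Igf1r and Insr, the receptor substrates Irs1 and Irs2, and the binding proteins Igfbp2, Igfbp4, Igfbp5, Igfbp6 and Igfbp7. All 10 had a value, each in a single row, among 33101 gene names with a value in the deposited table. The tissue came from wild-type male mice of the C57BL/6 background, 8 to 10 weeks old. Poly(A) RNA of 3 libraries, described as biological replicates of 1 group, was sequenced. Each gene has a single deposited level, in FPKM (fragments per kilobase of transcript, scaled to the number of mapped fragments). No standard deviation, replicate comparison or counting interval could therefore be attached to any value, the depth is unknown, and no test was made. There was no second condition, so genes are compared with each other, on a scale corrected for length.

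Igf1 and insulin act through the related receptor tyrosine kinases encoded by Igf1r and Insr. The activated receptors phosphorylate the docking proteins Irs1 and Irs2, which recruit phosphoinositide 3-kinase and so lead to AKT. Secreted IGF binding proteins hold IGFs outside the cell and either limit or prolong their access to the receptor, and proteases that cut the binding proteins release the ligand. In the dentate gyrus, Igf1 is known as a factor that promotes the proliferation and survival of newborn granule cells.

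The binding protein genes Igfbp5 and Igfbp2 had the highest values of the set, but Igfbp7 ranked 5 and Igfbp6 ranked 9 of the 10 genes. Igfbp5 was highest at 74.1 FPKM, 4.75 times Igfbp2 at 15.6 FPKM, and the ligand Igf1 was lowest at 0.153 FPKM. The receptors and substrates lay between 3.44 FPKM for Irs1 and 11.8 FPKM for Irs2. Of the 10 genes, 9 reached 1 FPKM, against 39.6% of all names and 56.4% of protein-coding names. The count at 10 FPKM or more was 4 of 10, against 21.1% of all names and 30.8% of protein-coding names. The median of the 10 genes was 5.66 FPKM and that of 20110 protein-coding names was 2.46 FPKM. The 10 genes were chosen with earlier results of these data known. With genes in place of replicates, these shares and medians describe the set and do not test it.

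**Figure D1:**
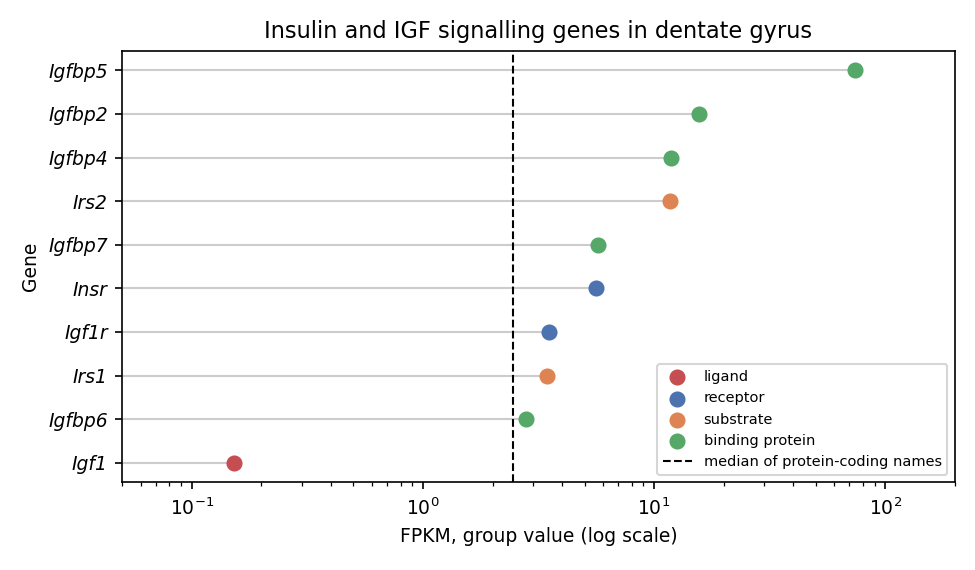
Deposited group FPKM (log axis) of the 10 insulin and IGF genes, 1 point per gene coloured by role, with the median of protein-coding names as a dashed line. Igfbp5 stands alone at 74.1 FPKM and Igf1 alone at 0.153 FPKM, while the other 8 genes lie between 2.79 and 15.6 FPKM, above the dashed line at 2.46 FPKM.

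Igf1, the only ligand among the 10 genes, lay above 34.8% of protein-coding names and above 52.2% of all names, many of which were listed at 0. The table names a transcript of 1391 nt for Igf1, the listed form spanning 87321010 to 87393640 on chromosome 10 (mm9). This form is 19.7% of the longest of 8 coding transcripts of the gene in GENCODE M21, which has 7052 nt. Igf1 was the only gene of the set listed with such a short form. For 8 of the 10 the listed transcript was the longest coding one, and for Igfbp7 it was 93.0% of it (1116 of 1200 nt). Across protein-coding names with more than 1 coding transcript, 40.8% of the 549 names listed with a coding form under 25% of the longest reached 1 FPKM, against 66.8% of the 6445 listed with the longest. Whether the value of Igf1 belongs to the gene or to the listed form was not tested, so the low value is a statement about this entry of the table.

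Other ligands were taken from a list of pathway genes. Igf2, the ligand best known from fetal growth and an imprinted gene, was at 7.19 FPKM, and the insulin genes Ins1 and Ins2 were listed at 0. The listed transcript of Igf2 was not matched in GENCODE M21, so its form is not described here. The ratio of Igf1 to Igf2 was 0.0212, and 0.0346 or 0.141 with 0.1 or 1 FPKM added to both values.

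Of the 2 receptor genes, Insr had the higher listed value. Insr was at 5.61 FPKM and Igf1r at 3.50 FPKM, a ratio of Insr to Igf1r of 1.60, and they lay above 59.4% and 53.4% of protein-coding names. Both were listed with their longest transcripts, of 9355 nt on chromosome 8 (3150922 to 3279617) and 11409 nt on chromosome 7 (75097713 to 75371326). Without a value per library, whether a ratio of 1.60 exceeds the spread between mice could not be determined. The other receptor genes were lower. Igf2r, which encodes the mannose 6-phosphate receptor that takes up Igf2 for degradation, was at 0.584 FPKM, and the insulin receptor-related receptor gene Insrr was listed at 0.

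The substrates differed more than the receptors. Irs2 was at 11.8 FPKM (chromosome 8, 10986980 to 11008458) and Irs1 at 3.44 FPKM (chromosome 1, 82229676 to 82287991), a ratio of Irs2 to Irs1 of 3.42. Each has a single coding transcript in GENCODE M21, of 6323 and 9144 nt. The protocol does not describe a step that keeps the strand, so reads of antisense partners could not be separated. The span of Irs1 overlaps the antisense entry Gm9747, at 1.62 FPKM, over 2822 bases. That of Irs2 overlaps the antisense entry 9530052E02Rik, at 0.308 FPKM, over 609 bases. The antisense entries that overlap Igf1 and Insr, Gm16176 and Gm16180, were listed at 0. In the list of 9 further adaptors and substrates, 6 reached 1 FPKM. The list was led by Grb2, the adaptor that links receptors to the RAS cascade, at 67.2 FPKM and by Grb14, an adaptor that inhibits the insulin receptor, at 25.5 FPKM. It ended with the substrate gene Irs4 at 0.00740 FPKM. The listed form of Grb14 is short, at 33.0% of its longest coding transcript.

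The 5 binding protein genes spanned a wider range than the receptors and substrates. After Igfbp5 and Igfbp2 came Igfbp4, a binding protein known mainly as an inhibitor of IGF action, at 11.8 FPKM. Igfbp7, a relative with low affinity for IGFs that is abundant in vessels, was at 5.70 FPKM. Igfbp6, which prefers Igf2 over Igf1, was at 2.79 FPKM. They lay above 96.2% (Igfbp5), 77.4% (Igfbp2), 72.3% (Igfbp4), 59.6% (Igfbp7) and 51.2% (Igfbp6) of protein-coding names. On the log2(FPKM + 0.1) scale, the median of the 5 binding proteins exceeded the median of the 4 receptor and substrate genes by 1.39. With Igfbp1 and Igfbp3 counted in, that difference was 0.36, so it depends on which family members are counted.

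Igfbp5 made up 64.3% of the summed FPKM of Igfbp1 to Igfbp7, 115 FPKM in all. Igfbp2 took 13.5%, Igfbp4 10.3%, Igfbp7 4.95% and Igfbp6 2.42% of that sum. The family members outside the set were Igfbp3, the main carrier of IGFs in serum, at 5.14 FPKM or 4.47% of the sum, and Igfbp1, a liver gene repressed by insulin, at 0.0695 FPKM or 0.0604%. Of the related genes, Igfbpl1 was at 5.19 FPKM, and Igfals, whose product stabilises the serum complex, was listed at 0. The listed transcript of Igfals was not matched in GENCODE M21. The ratio of Igfbp5 to Igf1 was 486, and 294 or 65.2 with 0.1 or 1 FPKM added to both values, so its size rests on a value of Igf1 near 0.

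**Figure D2:**
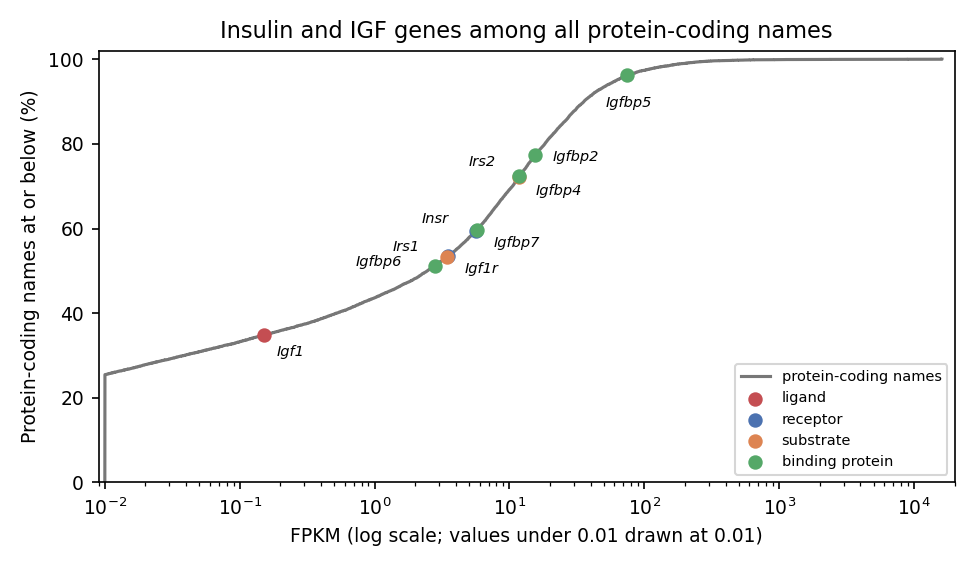
Cumulative share of 20110 protein-coding names (vertical axis, percent) by FPKM (log horizontal axis), with the 10 insulin and IGF genes marked and coloured by role. Igfbp5 lies above 96.2% of names, Igfbp6, Irs1 and Igf1r lie close to the middle at 51.2%, 53.2% and 53.4%, and Igf1 lies at 34.8%.

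Several neighbours in this order were nearly level, with no spread to separate them. Igfbp4 exceeded Irs2 by 1.01-fold, Igfbp7 exceeded Insr by 1.02-fold and Igf1r exceeded Irs1 by 1.02-fold. The widest steps were those from Igfbp6 down to Igf1, 18.3-fold, from Igfbp5 down to Igfbp2, 4.75-fold, and from Irs2 down to Igfbp7, 2.06-fold. Since each gene has 1 value, no gene could be named by a pattern of levels like that of a member.

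The 2 highest members are neighbours in the genome. In mm9, Igfbp2 lies on the plus strand of chromosome 1 at 72871077 to 72899048 and Igfbp5 on the minus strand at 72904506 to 72921458. They point towards each other with 5457 bases between their ends. The family has a second pair in this arrangement on chromosome 11, Igfbp1 (7097785 to 7102549) and Igfbp3 (7106089 to 7113900), 3539 bases apart. In each pair the gene on the minus strand had the higher value, Igfbp5 at 74.1 FPKM over Igfbp2 at 15.6 FPKM and Igfbp3 at 5.14 FPKM over Igfbp1 at 0.0695 FPKM. The other members are Igfbp4 on chromosome 11 (98902558 to 98913969), Igfbp6 on chromosome 15 (101974793 to 101979942) and Igfbp7 on chromosome 5 (77778265 to 77837070). The span of Igfbp7 overlaps that of the RNA polymerase subunit gene Polr2b, on the opposite strand and at 18.3 FPKM, by 85 bases.

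The series belongs to a study of DNA methylation, and the number of CpG dinucleotides before the start site was therefore counted as a feature of the genes that their choice did not use. RefSeq start sites on GRCm38.p6 gave 250 bases for 9 of the 10 members. Insr was the other. The sequences of the 2 neighbouring binding protein genes and of the substrate gene Irs1 are printed as examples, and were picked after their values were seen. They are 5′ to 3′ on the strand of the gene, end at the base before the RefSeq start and have each CpG in capitals. Their places are chr1:72874866-72875115 (minus strand) for Igfbp5, chr1:72824230-72824479 (plus strand) for Igfbp2 and chr1:82291440-82291689 (minus strand) for Irs1.
Igfbp5: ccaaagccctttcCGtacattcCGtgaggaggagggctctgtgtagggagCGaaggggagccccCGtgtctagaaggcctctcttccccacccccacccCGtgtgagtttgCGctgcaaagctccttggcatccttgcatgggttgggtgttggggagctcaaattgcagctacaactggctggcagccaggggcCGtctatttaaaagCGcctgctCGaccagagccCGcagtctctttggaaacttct
Igfbp2: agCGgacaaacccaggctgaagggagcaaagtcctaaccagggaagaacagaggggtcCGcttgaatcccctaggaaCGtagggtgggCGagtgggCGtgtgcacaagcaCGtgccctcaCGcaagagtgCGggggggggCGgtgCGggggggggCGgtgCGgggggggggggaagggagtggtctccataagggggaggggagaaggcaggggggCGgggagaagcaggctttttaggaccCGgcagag
Irs1: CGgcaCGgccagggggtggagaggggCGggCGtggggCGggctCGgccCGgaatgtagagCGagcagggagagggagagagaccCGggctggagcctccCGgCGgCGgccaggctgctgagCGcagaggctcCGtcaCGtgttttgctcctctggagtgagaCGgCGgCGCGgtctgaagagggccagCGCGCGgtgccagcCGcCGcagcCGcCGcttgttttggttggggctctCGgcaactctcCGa

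These windows hold 10 CpGs for Igfbp5, 14 for Igfbp2 and 28 for Irs1. The numbers were 42 for Igf1r, 34 for Irs2, 26 for Igfbp7, 22 for Igfbp4, 7 for Igfbp6 and 5 for Igf1. The median was 22 CpGs for the 9 genes and 11 for 14049 protein-coding names with a window. Of the 9 genes, 5 had 20 or more CpGs, against 25.6% of those names. Both receptor substrates and Igf1r are among these 5, together with Igfbp4 and Igfbp7. For 5 members (Irs1, Igfbp2, Igfbp4, Igfbp5 and Igfbp7) the RefSeq start lay within 50 bases of the start of the listed transcript. That start lay 176 bases away for Igfbp6, 471 for Irs2, 570 for Igf1r and 2846 for Igf1. The windows of these genes therefore belong to other starts than those of the listed forms.

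Shares here are over the 14049 protein-coding names that gave a window. For these names too, the window was that of the nearest RefSeq start, which need not be the start of the listed transcript. Of 4167 names with 0 to 4 CpGs, 17.2% reached 1 FPKM, and of 2138 with 5 to 9, 53.2%. The share was 78.1% of 4152 with 10 to 19 and 84.5% of 3592 with 20 or more. Igf1, with 5 CpGs, and Igfbp6, with 7, fall in the second of these classes, where the median was 1.49 FPKM. Igfbp5 and Igfbp2 fall in the third, with a median of 7.68 FPKM. In the class with 20 or more CpGs the median was 10.4 FPKM. Irs2 and Igfbp4 lay above that median, and Igf1r, Irs1 and Igfbp7 below it. Methylation of these sites was not analysed here. The letters TATAAA, searched on both strands, were found in the windows of Igfbp4 and Igfbp6 and in 11.2% of protein-coding names. The forkhead core TGTTTAC, also searched on both strands, was in none of the 9 windows and in 2.51% of protein-coding names. A match is a run of letters and not a binding site, and the absence of one covers these 250 bases.

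**Figure D3:**
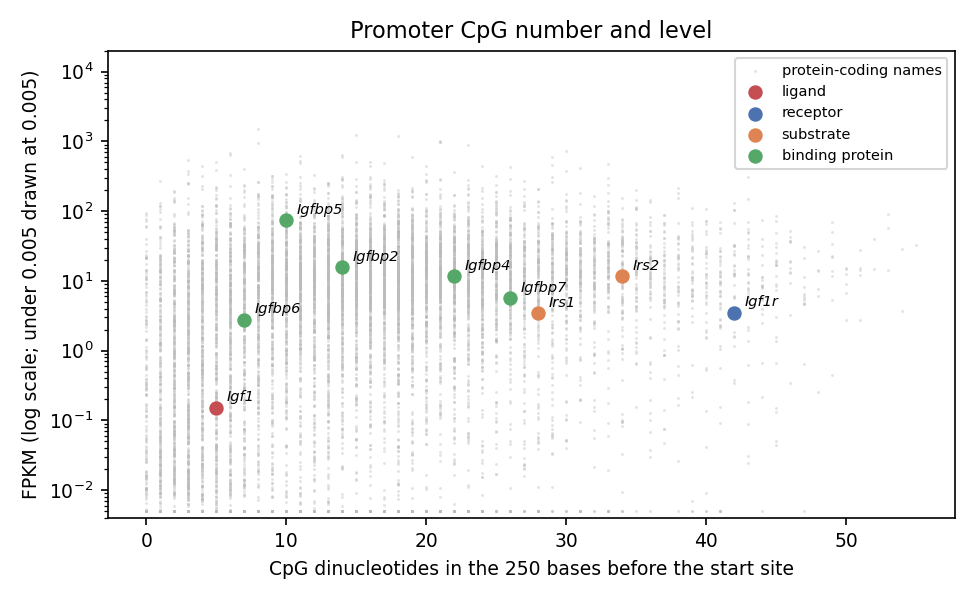
FPKM (log axis) against the number of CpG dinucleotides in the 250 bases before the RefSeq start site, for 14049 protein-coding names in grey and 9 insulin and IGF genes coloured by role. Igfbp5 combines 10 CpGs with the highest level of the set, 74.1 FPKM, while Igf1r has the most CpGs, 42, at 3.50 FPKM. The RefSeq start used for Igf1r lay 570 bases from that of its listed transcript.

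Genes that act on the binding proteins and on the signal were counted by role. Among 6 proteases and protease inhibitors, Htra1, a secreted serine protease that can cut Igfbp5, was highest at 170 FPKM, above Igfbp5 itself. The value of Htra1 was listed for a retained-intron form. Pappa, the metalloprotease that cuts Igfbp4, was listed at 0, with a listed transcript that was not matched in GENCODE M21, and its relative Pappa2 was at 0.230 FPKM. The stanniocalcin genes Stc2 and Stc1, whose products inhibit these metalloproteases, were at 3.95 and 2.84 FPKM. Ide, the insulin-degrading enzyme gene, was at 9.21 FPKM. Of the 6 genes, 4 reached 1 FPKM.

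All 6 phosphoinositide 3-kinase subunit genes reached 1 FPKM. The regulatory subunit gene Pik3r2 was highest at 47.5 FPKM, followed by Pik3r1 at 12.4 FPKM and Pik3r3 at 10.2 FPKM, the last listed with a short form at 13.4% of its longest coding transcript. Among the catalytic subunit genes, Pik3cb was at 11.9 FPKM, Pik3ca at 8.03 FPKM and Pik3cd at 3.95 FPKM. The 5 phosphatase genes also all reached 1 FPKM. They included Ptpn11 at 35.2 FPKM, Ptprf at 16.1 FPKM, Ptpn1, which dephosphorylates the insulin receptor, at 12.1 FPKM and Inppl1 at 4.92 FPKM. The value of Ptpn1 was listed for a noncoding form.

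Of 8 downstream kinase and transcription factor genes, 7 reached 1 FPKM, led by Akt1 at 71.5 FPKM, with Foxo6 lowest at 0.860 FPKM. The genes of the Igf2 mRNA-binding proteins were all under 1 FPKM: Igf2bp3 at 0.126 FPKM, Igf2bp1 at 0.0328 FPKM and Igf2bp2 listed at 0. Counted over all 46 pathway genes outside the 10 members, 31 (67.4%) reached 1 FPKM, against 56.4% of protein-coding names, and 6 (13.0%) were listed at 0, against 24.1%. The downstream lists had the highest medians, 11.1 FPKM for the kinase subunits, 16.1 FPKM for the phosphatases and 18.7 FPKM for the downstream kinases and transcription factors.

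**Figure D4:**
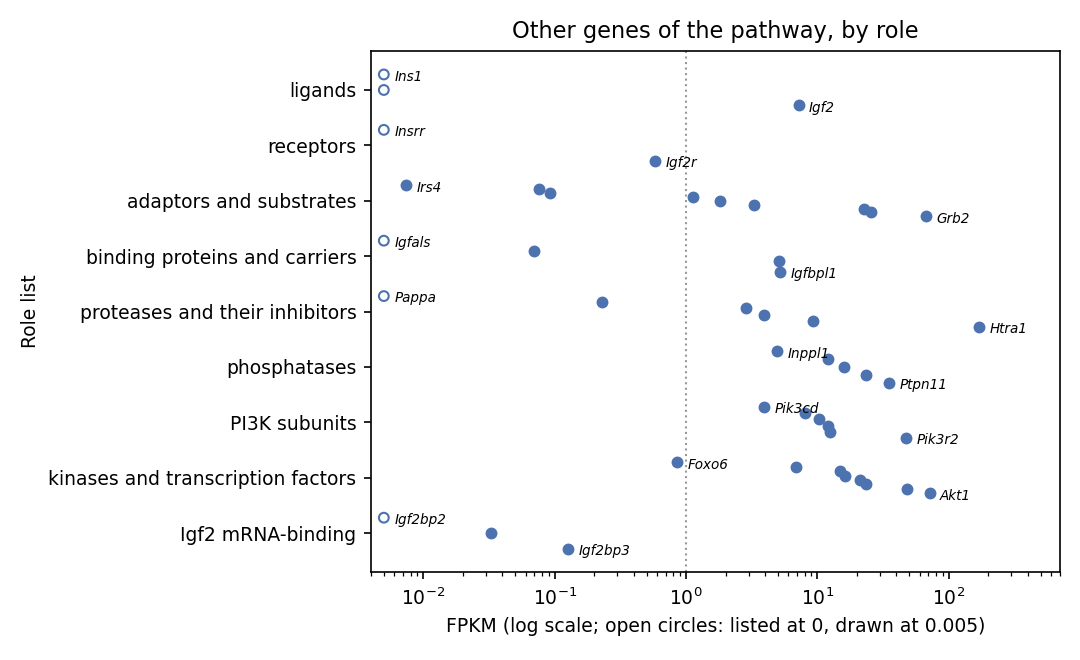
FPKM (log axis) of 46 further insulin and IGF pathway genes in 9 role lists, 1 point per gene, with the lowest and highest gene of each list named, a dotted line at 1 FPKM and open circles for genes listed at 0. All phosphatase and kinase subunit genes lie to the right of the line, and all Igf2 mRNA-binding genes to the left.

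The cells that carried these transcripts were not resolved, because the tissue was sequenced in bulk, where fewer cells of a type and less RNA per cell cannot be told apart. The marker lists of the cell types it could hold gave the following levels. All 5 granule cell markers exceeded 10 FPKM, from Dsp at 43.3 FPKM to C1ql2 at 111 FPKM. All 6 astrocyte markers (Aqp4 at 37.9 to Aldoc at 511 FPKM) and all 6 microglial markers (Cx3cr1 at 10.9 to C1qb at 38.9 FPKM) exceeded 10 FPKM too. Microglia are a known source of Igf1, whose entry was at 0.153 FPKM. Interneuron markers ranged from Vip at 2.41 FPKM to Sst at 109 FPKM, and oligodendrocyte markers from Olig2 at 5.94 FPKM to Mbp at 261 FPKM. Precursor markers ranged from Cspg4 at 2.56 FPKM to Pdgfra at 10.1 FPKM. Igfbp5, at 74.1 FPKM, lay within the ranges of the granule cell, astrocyte, interneuron and oligodendrocyte markers alike.

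Markers of vessels, membranes and neighbouring fields had lower list medians, 0.273 to 5.83 FPKM against 9.23 FPKM or more in the lists above. The ranges overlapped, and Vtn and Bok exceeded every precursor marker. Of 7 endothelial and mural markers, 6 reached 1 FPKM, with a median of 3.65 FPKM, Vtn highest at 16.8 FPKM and Pecam1 listed at 0. Of 6 leptomeningeal and fibroblast markers, 4 reached 1 FPKM, from Col3a1 at 0.232 FPKM to Dcn at 4.37 FPKM. Of 5 choroid plexus markers, 2 reached 1 FPKM, with Kl highest at 6.06 FPKM and Folr1 listed at 0. CA1 markers ranged from Pou3f1, listed at 0, to Wfs1 at 8.81 FPKM, and CA3 markers from Cdh24 at 1.42 FPKM to Bok at 12.9 FPKM. Igfbp5 exceeded every marker of these 5 lists, and Igfbp2 exceeded all but Vtn. The part of each cell type in the levels of the 10 genes was not tested.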

How the data were processed

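RNA of micro-dissected dentate gyrus was sequenced as 3 libraries of 1 wild-type group. The submitters' processing notes name TopHat, Cufflinks and the builds mm9 and NCBIM37. The sources used here do not give versions, the strand setting or how libraries were combined. The authors deposited 1 column of FPKM values for 37681 rows, each an Ensembl gene with 1 listed transcript; 1212 rows without a value were left out. Rows that share a symbol were summed. Starts were converted to 1-based positions. Gene types and transcript lengths came from GENCODE M21 by identifier (86.6% of rows matched), and start-site sequences from RefSeq on GRCm38.p6, taking the start nearest to that of the listed transcript. No coordinates were converted between builds.

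The 10 genes and the lists were chosen with earlier results of these data known. The rule named all 10 members, every gene of role lists of up to 6 and otherwise the 2 highest and the lowest, and the highest and lowest of each marker list; genes that overlap a member were named after their values were seen. Some genes that the rule names are not reported here. Percentiles count the names below a gene. The handling of shared symbols and the percentile step were tested on simulated data, and the other steps were not. Alternatives changed the minimum, pseudocount, background, group summary and handling of shared symbols. Computations used pandas 2.3.3 and numpy 2.4.6, and plots matplotlib 3.10.9, under Python 3.11.15.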

Additional observations from a re-analysis of the deposited data

How the results depend on the processing

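Of 100 recomputed values, 69 stayed within 1.5 times the reported value (0.58 on the log2 scale, 10 points for percentiles), and 31 moved further. A direction was defined only for the ratios and for the difference of binding proteins from receptors and substrates, and none reversed. The ratios could not reverse, since adding the same value to both genes keeps their order and each gene has a single row. Some of the 69 could not have moved. All 10 members have a single row, so keeping the highest row left their levels and ratios unchanged. For 8 members the listed transcript is the longest coding one, so length scaling changed nothing. No paired analysis was possible because the table holds 1 value column for 1 group, and leaving out each replicate in turn was not run for the same reason. A minimum of 20 FPKM in place of 10 kept 1 member, Igfbp5. Scaling by the listed over the longest coding length took Igf1 to 0.0301 FPKM. With all 7 binding proteins the difference from receptors and substrates was 0.36, and without Igfbp5, chosen after seeing the data, it was 0.87. With pseudocounts of 0.1 and 1 FPKM the ratio of Igf1 to Igf2 was 0.0346 and 0.141 in place of 0.0212, and that of Igfbp5 to Igf1 was 294 and 65.2. Percentiles fell when low names were left out, since many names are listed at 0. Among names above 0 FPKM they were 19.8 for Igf1, 46.5 for Igf1r, 53.6 for Insr, 46.3 for Irs1, 68.0 for Irs2, 73.8 for Igfbp2, 68.2 for Igfbp4, 43.8 for Igfbp6 and 53.8 for Igfbp7. Among names at 0.1 FPKM or more they were 3.34 for Igf1, 35.5 for Igf1r, 44.1 for Insr, 35.3 for Irs1, 61.5 for Irs2, 68.4 for Igfbp2, 61.7 for Igfbp4, 32.3 for Igfbp6 and 44.4 for Igfbp7. Among protein-coding names those that moved past 10 points were Igf1 (34.8), Igf1r (53.4), Insr (59.4), Irs1 (53.2), Igfbp6 (51.2) and Igfbp7 (59.6), against 52.2, 68.1, 72.3, 68.0, 66.5 and 72.5 among all names. The depth behind every value is unknown, which matters most for Igf1.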
